A study of Mus musculus with 12 samples.

Results

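The genes of the synaptic vesicle release machinery were followed through 3 kinds of mouse ependymoma and mouse cortex. The set held 43 genes of the 24421 in the deposited tables, chosen as the rows of both tables whose symbol stood in a fixed list of members. All 43 were found once in each table, and all are protein coding in the GENCODE annotation of mm10. By role they were 4 SNARE proteins, 8 SNARE regulators and recycling factors, 9 synaptotagmins and other C2 domain proteins, 13 vesicle proteins, 6 active zone scaffold proteins and 3 endocytic proteins. The data were RNA sequencing of bulk tissue in 12 libraries, 3 per group. The ETV5 tumours carried the ZFTA-RELA fusion and overexpressed a human variant of ETV5, a transcription factor of the ETS family. The NPY tumours carried the same fusion and overexpressed a human variant of NPY, the precursor of neuropeptide Y. The control tumours carried the fusion alone, and the cortex was wild-type non-tumour tissue. All 9 tumours therefore shared the fusion, a driver of supratentorial ependymoma. The labels give no age, sex or promoter and do not say whether replicates were separate animals, and each p-value reflects the spread among the 3 libraries of a group, which may be technical.

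Synaptic vesicles fuse with the presynaptic membrane when SNARE proteins on the vesicle and on the plasma membrane zip together. Scaffold proteins of the active zone hold vesicles near calcium channels, priming factors prepare them, and synaptotagmins trigger fusion when calcium enters. NSF and its adaptors then take the SNARE complexes apart, and endocytic proteins retrieve the membrane. In the cortex this machinery is a property of mature neurons, while several relatives of its proteins serve secretion in most cell types.

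Depth was 6691146 to 11291057 reads in the ETV5 tumours, 8214523 to 10481943 in the NPY tumours, 6266613 to 9443466 in the control tumours and 5962376 to 7444467 in cortex. Levels below are CPM (reads per gene scaled to the depth of the library), from reads recovered from the deposited values, and a group value is the mean ± SD over n = 3 libraries. Fold changes are on the log2(deposited value + 1) scale, with standard errors (SE) and Benjamini-Hochberg adjusted p-values from limma over all genes tested, and a gene was called when the adjusted p was under 0.05. The transgenes were human, and whether any of their reads were counted at the mouse genes was not tested. Reads at the mouse genes are therefore not taken as a measure of the transgenes, and the group names follow the labels. Mouse Etv5 stood at 401 to 474 CPM in the ETV5 tumours and 264 to 322 CPM in the control tumours, and mouse Npy at 2.19 to 15.9 CPM in the NPY tumours and 21.5 to 46.1 CPM in the control tumours. Markers of the tumour (Vim, Nes, Rela, Mki67, Top2a and 2700081O15Rik, the mouse symbol for Zfta) summed to 2469 to 2655 CPM in the ETV5 tumours, 2572 to 3215 CPM in the NPY tumours, 2802 to 2946 CPM in the control tumours and 113 to 129 CPM in cortex. The cortex libraries expressed all 16 pan-neuronal markers, as their label asks.

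The machinery was transcribed at a small share of its cortical level in every tumour library. The 43 members together took 635, 1826 and 1097 CPM in the ETV5 tumours, 581, 564 and 571 CPM in the NPY tumours, 1536, 1550.1 and 2880.3 CPM in the control tumours and 19789, 20028 and 19247 CPM in cortex. The NPY libraries were alike and lay below all others, while the ETV5 libraries were spread from near the NPY level to above that of 2 of the control libraries. For the median member, the level relative to the cortex mean was 1.77 to 8.20% in the ETV5 libraries, 1.84 to 2.28% in the NPY libraries and 6.44 to 14.1% in the control libraries. For 41 of the 43 members all 9 tumour libraries lay below all 3 cortex libraries, and the exceptions were Doc2b and Sv2c. In bulk tissue, fewer neurons and less RNA of these genes per neuron cannot be told apart.

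**Figure D1:**
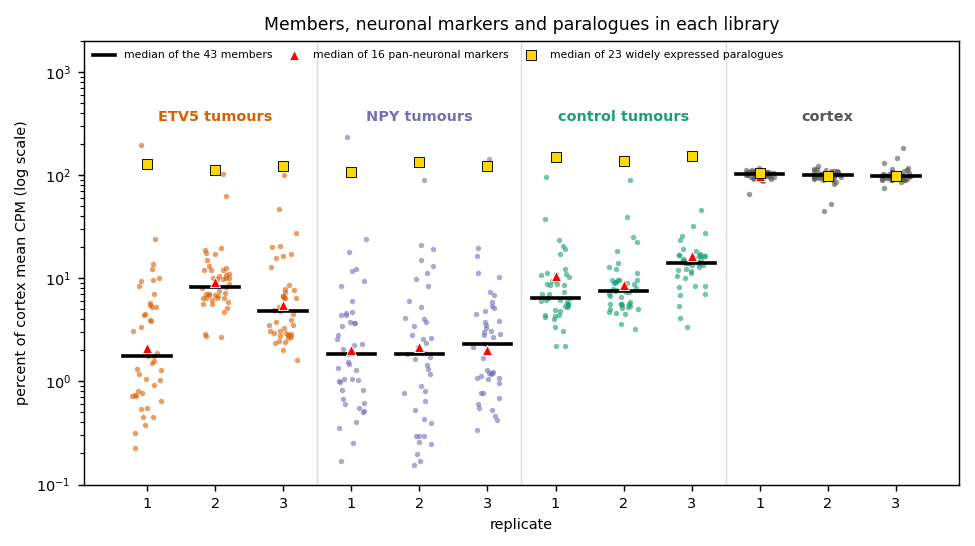
Level of each of the 43 members (points) in each library, as percent of the mean of the 3 cortex libraries on a log scale, with the median of the members (black bar), of 16 pan-neuronal markers (red triangle) and of 23 widely expressed paralogues with reads in cortex (yellow square). The median of the members lies between 1.77 and 8.20% in the ETV5 libraries, 1.84 and 2.28% in the NPY libraries and 6.44 and 14.1% in the control libraries, close to that of the neuronal markers. The median of the paralogues stays above 100% in the tumours, though single paralogues lie below it. Cplx3 in NPY replicate 2 had 0 reads and is not drawn.

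The control tumours were set against cortex to ask how the tumour tissue differs from non-tumour cortex. In the control tumours 42 of the 43 members were lower than in cortex and 0 were higher, against a background of 36.2% of the 14621 genes tested that were called lower. The members' median log2 fold change was -3.64, and that of all genes was -0.00. For 42 members the control libraries all lay below the cortex libraries, against 33.6% of all genes. The falls were largest for Rab3c (29.3-fold), Rims1 (27.2-fold), Unc13c (25.9-fold), Cplx3 (24.4-fold) and Unc13a (21.8-fold). They were smallest for Synj1 (5.27-fold), Syn3 (4.65-fold), Syt11 (4.63-fold) and Sv2c (2.33-fold), and Doc2b was not called. edgeR, DESeq2 and limma-voom each called 42 members as well.

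The NPY tumours were set against the control tumours to ask what NPY overexpression adds to the fusion. In the NPY tumours 25 of the 42 members tested were lower than in the control tumours, 0 were higher and 17 were not called, against a background of 4.31% of the 14425 genes tested that were called lower. The called members ranged from Snap25, 23.1-fold lower, to Syt11, 2.33-fold lower. The members' median log2 fold change was -1.85 and that of all genes was 0.04, and 41 of 42 members had a negative value. In 34 of the 42 members the NPY libraries all lay below the control libraries, which was so for 18.4% of all genes. Of the 42 members, 7 had fewer than 10 reads in 1 or more NPY libraries and met the filter only with the control libraries, the group where they are higher. They include 5 of the called members (Unc13c, Syt5, Sv2b, Rab3c and Rims1), and among the other 35 members 20 were called. All 7 also enter the median and the 41 negative values, and all but Syt2 enter the 34 members without overlap. There too they are no separate support. Cplx3 held too few reads to be tested, with 6 reads in all NPY libraries and 26 in all control libraries, a ratio of CPM of 0.212 (95% interval 0.0715 to 0.528, counting error only). The number of members called depended on single libraries. It was 0 without control replicate 2, 4 without NPY replicate 1 (Snap25, Syt1, Syt13 and Rph3a), 7 without control replicate 3, 8 without control replicate 1, 17 without NPY replicate 3 and 22 without NPY replicate 2, while the median log2 fold change stayed between -2.07 and -1.64. edgeR called 24 members (without Pclo), DESeq2 33 and limma-voom 17 (without Napb, Syn1, Sv2b, Rab3c, Sncb, Bsn, Pclo and Amph). The sample codes of all 3 NPY libraries began with EC and those of all 3 control libraries with DS, so that NPY overexpression and this code prefix cannot be told apart.

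Markers of neurons, and some markers of glia, moved with the members in the NPY tumours. In this comparison 4.31% of the 14425 genes tested were called lower. The 16 pan-neuronal markers summed to 301 to 412 CPM in the NPY libraries and 1071 to 1776 CPM in the control libraries; 9 of 16 were called lower and none of the 16 was at 0 reads. Of the excitatory neuron markers 5 of 8 were called lower, with Neurod6 at 0 reads in all NPY libraries, and of the inhibitory markers 3 of the 5 tested, with Dlx1 at 0 reads. The 7 astrocyte markers summed to 477 to 1832 CPM in the NPY libraries and 3875 to 4448 CPM in the control libraries, with 2 of 7 called lower (Slc1a2 and Slc1a3). The 10 oligodendrocyte lineage markers summed to 719 to 1670.1 CPM in the NPY libraries and 2185 to 4023 CPM in the control libraries, with 1 of 10 called lower (Cnp). DESeq2 called 5 of 7 astrocyte and 5 of 10 oligodendrocyte lineage markers lower, and 1833 genes in all in either direction. None of these markers of glia was at 0 reads in the NPY libraries. The 7 microglia and macrophage markers summed to 1777 to 3788 CPM in the NPY libraries and 2076 to 4592 CPM in the control libraries. These ranges overlap, and limma called 0 of the 7. The summed tumour markers, given above, overlapped between the groups, and of these 6 genes limma called 0, with 2 at an unadjusted p under 0.05; edgeR and limma-voom called none of them and DESeq2 2 as higher. The part of these cell types in the fall of the members was not tested.

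The ETV5 tumours were set against the control tumours to ask the same of ETV5 overexpression. limma called 0 of the 42 members tested, and 0% of the 14382 genes tested, with 944 genes and 5 members at an unadjusted p under 0.05. edgeR, DESeq2 and limma-voom also called 0 members, although DESeq2 called 76 genes elsewhere. The members' median log2 fold change was -0.81, against -0.02 for all genes, and 40 of 42 members had a negative value. Of the 42, 5 (Unc13c, Syt2, Syt5, Syt13 and Sv2c) had fewer than 10 reads in 1 or more ETV5 libraries, so their values are no separate support. The ETV5 libraries all lay below the control libraries for 4 members (Unc13a, Rims1, Rph3a and Syt11) of 42, against 7.08% of all genes. ETV5 replicate 1 was the lowest of its group for 35 of the 43 members and replicate 2 the highest for 35. The median was -0.51 without ETV5 replicate 1, -1.38 without ETV5 replicate 2 and -0.55 without control replicate 3, with 0 members called in each case. In the control tumours replicate 3 was the highest library for 38 of the 43 members. The pan-neuronal markers followed the same order of libraries, summing to 373, 1306 and 675 CPM in ETV5 replicates 1, 2 and 3, and to 1071, 1079 and 1776 CPM in control replicates 1, 2 and 3. Markers of other cell types also differed among the ETV5 libraries. Astrocyte markers summed to 1056, 4296 and 3017 CPM, oligodendrocyte lineage markers to 866, 1425 and 2616 CPM and microglia and macrophage markers to 1175, 2095 and 2465 CPM in ETV5 replicates 1, 2 and 3, replicate 1 being the lowest for each. The part of these cell types in the spread of the members was not tested.

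**Figure D2:**
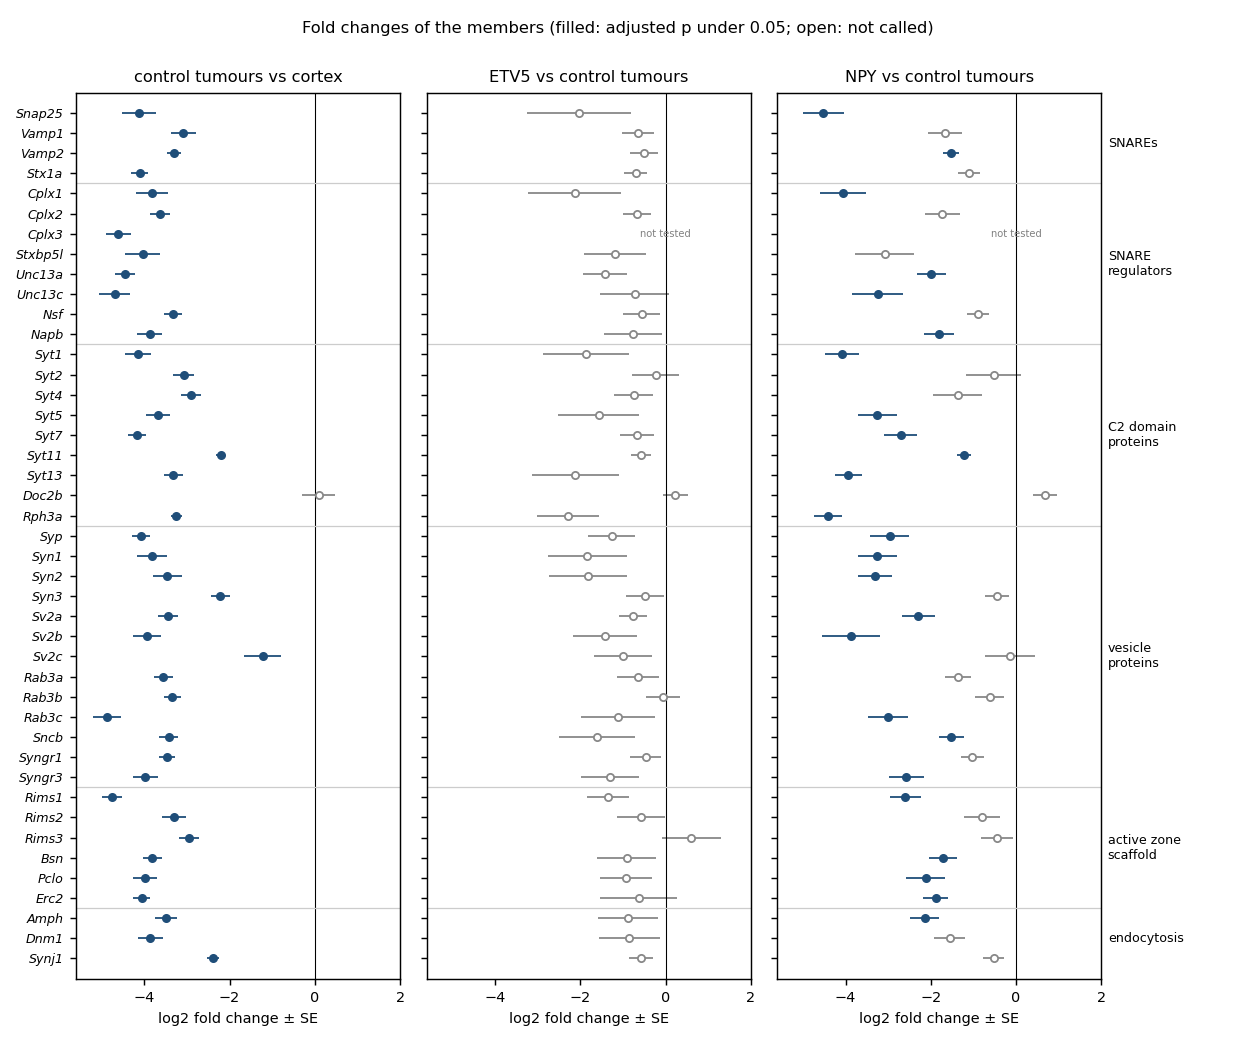
Log2 fold change ± SE of each member (rows, grouped by role) in control tumours against cortex, ETV5 against control tumours and NPY against control tumours, with filled points for members called at an adjusted p under 0.05. In the first panel 42 of 43 points are filled and negative, in the second none of 42, and in the third 25 of 42, all negative; Doc2b stands alone to the right of zero in the third.

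The promoters of the members were searched for the left and right arms of RE1, the element bound by the repressor REST, which keeps neuronal genes silent outside neurons. The left arm was searched as TTCAGCACC and the right arm as GGACAGCGC, on either strand, in RefSeq windows from 250 bases before to 50 bases after each gene's start (GRCm38.p6). Windows existed for 33 of the 43 members (43 windows). The left arm occurred in 0.371% of all 32851 windows, the right arm in 0.405% and either in 0.761%; the motifs do not overlap each other. Among the members, Syn1 and Unc13a held a match. These 2 stretches are printed because they are the ones found, with the matching letters in capitals, 5′ to 3′ on the strand of the gene, and the Unc13a match is shown without its flanks.
Syn1 promoter, chrX:20921082-20921168, minus strand: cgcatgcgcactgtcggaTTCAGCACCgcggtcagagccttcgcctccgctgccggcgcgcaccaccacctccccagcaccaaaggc
Unc13a, chr8:71671727-71671752, minus strand: GCGCTGTCCgcgcccccGGTGCTGAA
The Syn1 match is the left arm and lies before the start. The Unc13a match lies after the start and reads on the opposite strand as the left arm, 8 bases and the right arm. A match describes letters in a window and no occupancy was measured. Syn1 and Unc13a were both among the members called lower in the control tumours and in the NPY tumours, as were most members without these letters.

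The SNARE proteins, which form the fusion complex itself, were low in all tumours. In the control tumours all 4 were lower than in cortex, by 8.5- to 17.5-fold, and in the NPY tumours 2 of 4 were lower than in the control tumours. Snap25 (chr2:136713453-136782428, plus strand) encodes the lipid-anchored SNARE of the presynaptic membrane. It stood at 4.99, 157 and 52.3 CPM in the ETV5 tumours, 5.59, 4.38 and 7.44 CPM in the NPY tumours, 92.1, 98.4 and 311 CPM in the control tumours and 2016, 2473 and 2137 CPM in cortex. Its NPY libraries lay more than an order of magnitude below each control library, while ETV5 replicate 1 was as low as the NPY tumours and ETV5 replicate 2 lay within the control range. The means were 5.8 ± 1.54 CPM in the NPY tumours and 167 ± 125 CPM in the control tumours (log2 fold change -4.53, SE 0.48, adjusted p = 0.0122), so that 0.263% of the cortical level was left in the NPY tumours and 7.57% in the control tumours. In ETV5 against control tumours it was not called (log2 fold change -2.03, SE 1.23, adjusted p = 0.74).

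Vamp2, synaptobrevin 2, is the main vesicle SNARE of the forebrain. It stood at 55.5, 125 and 90.5 CPM in the ETV5 tumours, 38.5, 39.2 and 40.2 CPM in the NPY tumours, 116, 94.8 and 157 CPM in the control tumours and 1038, 1084 and 1025 CPM in cortex. The NPY libraries were nearly equal and all below the control libraries, a 2.87-fold difference (log2 fold change -1.52, SE 0.19, adjusted p = 0.0141) that stands beside one of 23.1-fold for Snap25, its partner in the complex; the 2 were not tested against each other. Vamp1, synaptobrevin 1, kept 3.96% of its cortical level in the NPY tumours and 14.4% in the control tumours and was not called between them (log2 fold change -1.66, SE 0.40, adjusted p = 0.0669). Stx1a, the syntaxin of the plasma membrane, was not called either (log2 fold change -1.11, SE 0.26, adjusted p = 0.0612). Control replicate 3 stood well above the other control libraries for Snap25, and without it the Snap25 value was -3.97. The adjusted p of Snap25 and of Vamp2 was 0.0681 without control replicate 2.

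Among the regulators of the SNARE complex, 4 of the 7 tested (Unc13c among the 4) were lower in the NPY tumours than in the control tumours, and all 8 were lower in the control tumours than in cortex. Cplx1, a complexin that clamps and then assists the assembled complex, stood at 2.49, 51 and 22.1 CPM in the ETV5 tumours, 2.79, 2.31 and 6.11 CPM in the NPY tumours, 50.7, 37.1 and 129 CPM in the control tumours and 775, 834 and 754 CPM in cortex. The NPY libraries lay below the control libraries by 16.7-fold (log2 fold change -4.06, SE 0.54, adjusted p = 0.0159). Cplx2, the related complexin that is also abundant in cortex, differed by 3.31-fold and was not called (log2 fold change -1.73, SE 0.41, adjusted p = 0.0635), and NPY replicate 2 was its lowest library at 20.2 CPM. Cplx3, best known from retinal ribbon synapses, was scarce throughout, with 0.131, 1.35 and 0.709 CPM in the ETV5 tumours, 0.364, 0 and 0.286 CPM in the NPY tumours, 1.48, 0.771 and 0.798 CPM in the control tumours and 24.6, 23.1 and 23.9 CPM in cortex; it was 24.4-fold lower in the control tumours than in cortex (log2 fold change -4.61, SE 0.30, adjusted p = 3.31e-06), where it met the filter only with the cortex libraries.

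Unc13a encodes Munc13-1, the priming factor of most cortical synapses. It stood at 2.89, 8.97 and 8.24 CPM in the ETV5 tumours, 3.16, 4.14 and 4.01 CPM in the NPY tumours, 10.6, 17.7 and 22.2 CPM in the control tumours and 321, 313 and 308 CPM in cortex. Control tumours were 21.8-fold lower than cortex (log2 fold change -4.45, SE 0.23, adjusted p = 1.41e-06), and NPY tumours a further 3.96-fold lower than the control tumours (log2 fold change -1.99, SE 0.33, adjusted p = 0.0268). Its ETV5 libraries also all lay below the control libraries, without a call (log2 fold change -1.42, SE 0.52, adjusted p = 0.732). Unc13c, the Munc13 of cerebellar granule cells, stood at 0.525, 1.94 and 4.61 CPM in the ETV5 tumours, 0.121, 0.122 and 0.382 CPM in the NPY tumours, 1.59, 4.07 and 3.83 CPM in the control tumours and 62.9, 58.5 and 94.7 CPM in cortex. With 6 reads in all NPY libraries and 76 in all control libraries, the ratio of CPM was 0.0727 (95% interval 0.0259 to 0.166, counting error only), and limma called it lower (log2 fold change -3.25, SE 0.59, adjusted p = 0.0326). It met the minimum of reads only through the control libraries, so this call adds nothing to the ratio. Control tumours were 25.9-fold below cortex for this gene (log2 fold change -4.70, SE 0.36, adjusted p = 7.33e-06).

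Napb, the brain form of the SNAP adaptor that brings NSF to the complex, stood at 7.74, 46.5 and 21.3 CPM in the ETV5 tumours, 8.01, 9.5 and 9.44 CPM in the NPY tumours, 25.8, 24.1 and 60 CPM in the control tumours and 453, 429 and 428 CPM in cortex. Its NPY libraries, all under 10 CPM, lay below all control libraries (log2 fold change -1.80, SE 0.36, adjusted p = 0.0405). Nsf, the ATPase that takes the complexes apart and serves fusion in every cell, differed by 1.85-fold and was not called (log2 fold change -0.89, SE 0.26, adjusted p = 0.102). Stxbp5l, tomosyn 2, a decoy that holds SNAREs back, missed the threshold (log2 fold change -3.08, SE 0.69, adjusted p = 0.055). Both groups were spread, over 6.14 to 21.5 CPM in the control libraries and 0.365 to 1.53 CPM in the NPY libraries. Stxbp5l met the minimum of reads only with the control libraries, where it is higher. Without control replicate 2 the adjusted p-values of the 4 called genes lay between 0.0735 and 0.13, without NPY replicate 1 none of the 4 was called, and Napb was called in none of the 6 fits that left out 1 library.

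Of the 9 synaptotagmins and other C2 domain proteins, 8 were lower in the control tumours than in cortex. In the NPY tumours 6 (Syt5 among them) were lower than in the control tumours. Syt1 (chr10:108497650-109010982, minus strand), the calcium sensor of fast release, stood at 6.04, 109.8 and 32.4 CPM in the ETV5 tumours, 6.44, 3.9 and 6.68 CPM in the NPY tumours, 63.9, 89.6 and 181 CPM in the control tumours and 1657, 1679 and 1445 CPM in cortex. The means were 5.67 ± 1.54 CPM in the NPY tumours and 111 ± 61.4 CPM in the control tumours, a 17-fold difference with no overlap (log2 fold change -4.08, SE 0.41, adjusted p = 0.0122). ETV5 replicate 1, at 6.04 CPM, was within the NPY range.

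Rph3a, rabphilin, an effector of Rab3 that binds vesicles, stood at 3.28, 29.1 and 13.4 CPM in the ETV5 tumours, 3.04, 1.34 and 2.77 CPM in the NPY tumours, 49.3, 58.3 and 53.1 CPM in the control tumours and 434, 504 and 425 CPM in cortex. The control libraries were close together and the NPY libraries lay 21.4-fold below them (log2 fold change -4.42, SE 0.33, adjusted p = 0.009). It also had the largest negative value in ETV5 against control tumours, where all ETV5 libraries lay below the control libraries but the gene was not called (log2 fold change -2.29, SE 0.73, adjusted p = 0.732). Syt13, an atypical synaptotagmin without calcium binding, stood at 1.18, 25.4 and 9.03 CPM in the ETV5 tumours, 1.58, 2.07 and 1.43 CPM in the NPY tumours, 22.7, 25.1 and 42.4 CPM in the control tumours and 248, 297 and 232 CPM in cortex. Those of the NPY tumours lay 15.3-fold below the control libraries (log2 fold change -3.94, SE 0.32, adjusted p = 0.011), and the ETV5 libraries ranged from below the NPY libraries to within the control range.

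Syt5 stood at 0.919, 14.8 and 4.69 CPM in the ETV5 tumours, 0.729, 1.1 and 1.72 CPM in the NPY tumours, 7.52, 13.6 and 18.4 CPM in the control tumours and 132, 141 and 151 CPM in cortex. Its NPY libraries were all under 2 CPM and below all control libraries (log2 fold change -3.26, SE 0.46, adjusted p = 0.0185). Syt5 met the minimum of reads only with the control libraries, where it is higher, so this call is no separate support. Syt7, the slow sensor of asynchronous release and vesicle replenishment, stood at 9.45, 17.9 and 7.53 CPM in the ETV5 tumours, 2.91, 1.46 and 3.15 CPM in the NPY tumours, 12, 18.6 and 22.8 CPM in the control tumours and 307, 279 and 249 CPM in cortex. All NPY values lay below the control libraries (log2 fold change -2.71, SE 0.39, adjusted p = 0.02) and also below all ETV5 libraries.

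Syt11, a relative that does not sense calcium and acts in vesicle trafficking and endocytosis, had the highest mean per length of all members in each tumour group. Its lead over the next member lay within the spread. It stood at 117, 165 and 196 CPM in the ETV5 tumours, 79.7, 106 and 96.6 CPM in the NPY tumours, 223, 212 and 262 CPM in the control tumours and 1026, 901 and 928 CPM in cortex. NPY libraries were the lowest, ETV5 libraries intermediate and control libraries higher. NPY tumours were called lower than control tumours (log2 fold change -1.22, SE 0.16, adjusted p = 0.0153), and ETV5 tumours, though also without overlap, were not (log2 fold change -0.58, SE 0.23, adjusted p = 0.732). Control tumours were 4.63-fold below cortex (log2 fold change -2.21, SE 0.10, adjusted p = 1.06e-06).

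Doc2b (chr11:75768966-75796049, minus strand), a high-affinity calcium sensor of spontaneous release that also serves insulin secretion, was the member not called lower. It stood at 90.3, 48.1 and 46.8 CPM in the ETV5 tumours, 108, 58.4 and 67.2 CPM in the NPY tumours, 44.5, 41.3 and 67 CPM in the control tumours and 50.2, 20.8 and 68.8 CPM in cortex. The tumour and cortex libraries overlapped, and the cortex libraries were spread widely. Neither control tumours against cortex (log2 fold change 0.08, SE 0.38, adjusted p = 0.854) nor NPY against control tumours (log2 fold change 0.68, SE 0.28, adjusted p = 0.208) was called, and the sign of the first was negative under edgeR and DESeq2 (-0.03 and -0.01). Syt2, the fast sensor of hindbrain synapses, and Syt4, a synaptotagmin of dense-core vesicles, were lower in the control tumours than in cortex by 8.47- and 7.5-fold and were not called in NPY tumours (adjusted p = 0.672 and 0.213). NPY replicate 2 stood above the other NPY libraries for both, at 2.92 CPM for Syt2 and 26.9 CPM for Syt4, and without it Syt4 was called lower. Without control replicate 2 the adjusted p-values of the 6 called members of this group lay between 0.0681 and 0.0927, while Syt1, Syt13 and Rph3a were called in each of the other 5 fits without 1 library.

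**Figure D3:**
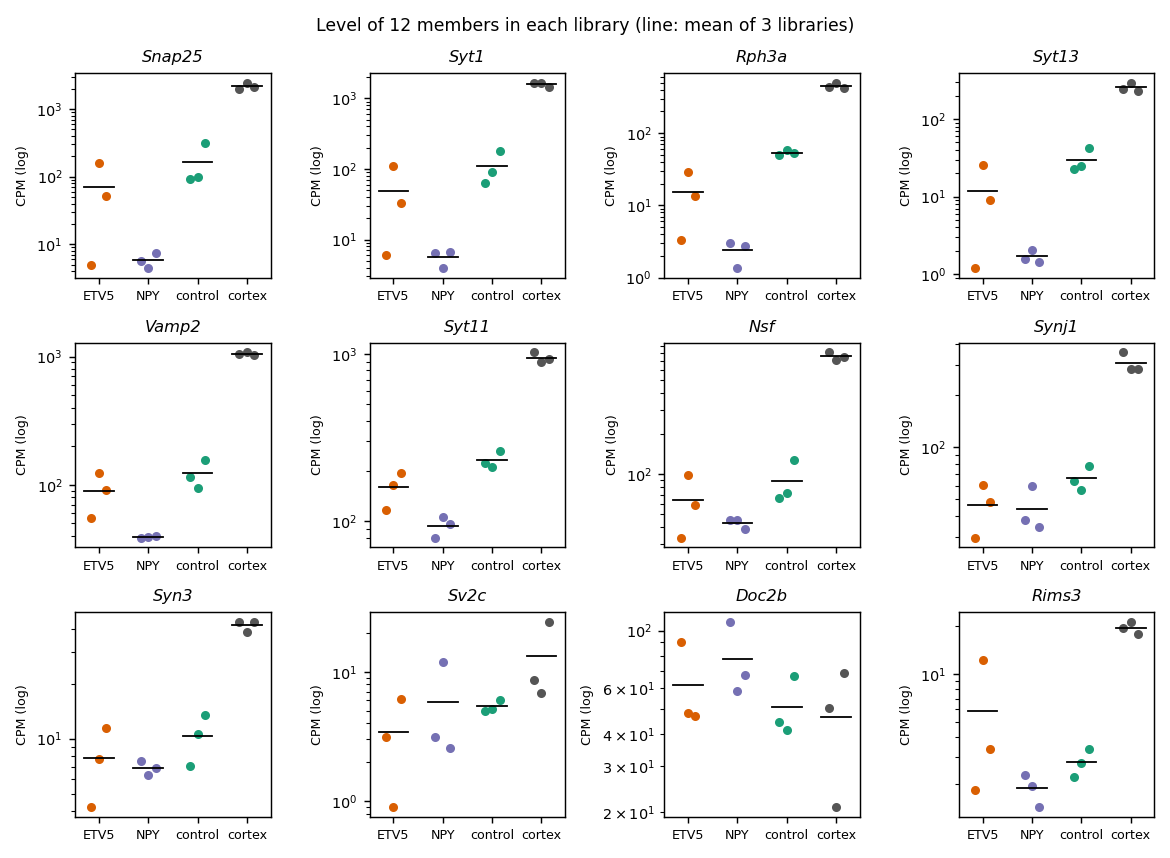
CPM of 12 members in each library (points, log scale) with the mean of each group (line), ETV5, NPY and control tumours and cortex from left to right. Snap25, Syt1, Rph3a and Syt13 have their lowest group mean in the NPY tumours and spread widely in the ETV5 tumours, Vamp2 and Syt11 fall by less, and the points of Doc2b overlap in all 4 groups.

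The vesicle proteins were the largest group. All 13 were lower in the control tumours than in cortex, and 8 (Sv2b and Rab3c among them) were lower in the NPY tumours than in the control tumours. Syp, synaptophysin, the most used marker of synaptic vesicles, stood at 19.3, 87.4 and 42.7 CPM in the ETV5 tumours, 15.8, 5.97 and 17.6 CPM in the NPY tumours, 84.1, 77.4 and 149.8 CPM in the control tumours and 1468, 1517 and 1502 CPM in cortex. The NPY libraries lay below the control libraries by 7.83-fold (log2 fold change -2.97, SE 0.45, adjusted p = 0.0225). The synapsins tether vesicles in the reserve pool. Syn1 stood at 2.23, 29 and 11.4 CPM in the ETV5 tumours, 2.55, 2.68 and 4.48 CPM in the NPY tumours, 23.4, 23.1 and 65.3 CPM in the control tumours and 404, 455 and 379 CPM in cortex. Its NPY libraries were all under 5 CPM and its control libraries all above 20 CPM (log2 fold change -3.26, SE 0.46, adjusted p = 0.0185). Syn2 stood at 4.2, 54.5 and 16.8 CPM in the ETV5 tumours, 5.34, 4.87 and 5.25 CPM in the NPY tumours, 32.9, 49.1 and 104 CPM in the control tumours and 589, 489 and 549.9 CPM in cortex. The NPY libraries were nearly equal, at 5.15 ± 0.25 CPM, and 9.91-fold below the control libraries (log2 fold change -3.31, SE 0.40, adjusted p = 0.0141).

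Syn3, the synapsin of early neuronal development, stood at 4.2, 7.77 and 11.4 CPM in the ETV5 tumours, 7.53, 6.33 and 6.87 CPM in the NPY tumours, 7.09, 10.6 and 13.4 CPM in the control tumours and 43.8, 38.4 and 43.3 CPM in cortex. It kept 16.5% of the cortical level in the NPY tumours and 24.8% in the control tumours, where the groups overlapped and no call was made (log2 fold change -0.45, SE 0.29, adjusted p = 0.4). Exons of Timp3 on the opposite strand cover 14.1% of the exon length of Syn3. Timp3 itself stood at 319 to 589 CPM in the ETV5 tumours, 454 to 802 CPM in the NPY tumours, 519 to 660 CPM in the control tumours and 110 to 120 CPM in cortex. The library kit keeps the strand, but the strand setting of the counting is not given in the sources used here, so the Syn3 values are uncertain. Opposite-strand exons also cover 16.8% of Syp (Gm14703), 14.5% of Syt4 (Gm26658) and 5.53% of Doc2b (Gm12339), and 14 members have some such overlap.

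The SV2 proteins are transporter-like glycoproteins of the vesicle. Sv2a stood at 24.5, 39.3 and 21.3 CPM in the ETV5 tumours, 5.83, 8.52 and 13.6 CPM in the NPY tumours, 38.5, 35.3 and 72.6 CPM in the control tumours and 467, 429 and 448 CPM in cortex. Its NPY libraries lay below all ETV5 and all control libraries (log2 fold change -2.30, SE 0.39, adjusted p = 0.0289 against control tumours). Sv2b stood at 5.91, 42.1 and 13.8 CPM in the ETV5 tumours, 4.61, 0.852 and 3.82 CPM in the NPY tumours, 24.6, 36.3 and 73.9 CPM in the control tumours and 603, 594 and 472 CPM in cortex. Those of the NPY tumours lay 14.6-fold below the control libraries (log2 fold change -3.87, SE 0.68, adjusted p = 0.0309), NPY replicate 2 lowest of all. Sv2b met the minimum of reads only with the control libraries, so this call is no separate support. Sv2c, the form of the basal ganglia, stood at 3.15, 0.897 and 6.2 CPM in the ETV5 tumours, 3.16, 11.8 and 2.58 CPM in the NPY tumours, 4.98, 5.17 and 6.06 CPM in the control tumours and 8.6, 6.88 and 24.4 CPM in cortex. The tumour libraries overlapped each other, NPY replicate 2 lay within the cortex range, and cortex replicate 3 was well above the other cortex libraries. Control tumours were 2.33-fold below cortex (log2 fold change -1.22, SE 0.43, adjusted p = 0.0304), a call lost without cortex replicate 3 (log2 fold change -0.68, adjusted p = 0.0611), control replicate 1 (adjusted p = 0.0667) or control replicate 2 (adjusted p = 0.0681), and with all groups of the table in 1 limma fit (adjusted p = 0.142).

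Rab3 GTPases mark vesicles for docking. Rab3c had the largest fall of all members in control tumours against cortex (log2 fold change -4.87, SE 0.33, adjusted p = 4.19e-06), at 1.31, 13.6 and 6.91 CPM in the ETV5 tumours, 1.46, 0.852 and 1.34 CPM in the NPY tumours, 6.35, 10.5 and 19.8 CPM in the control tumours and 289, 269 and 309 CPM in cortex. All NPY values lay below the control libraries (log2 fold change -3.01, SE 0.47, adjusted p = 0.0235). In that comparison Rab3c met the minimum of reads only with the control libraries, so the call is no separate support. Rab3a, the most abundant Rab3 of the brain, kept 3.56% of the cortical level in the NPY tumours and 10% in the control tumours and missed the threshold (log2 fold change -1.37, SE 0.31, adjusted p = 0.0563). Rab3b was not called (log2 fold change -0.62, SE 0.35, adjusted p = 0.33).

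Sncb, beta-synuclein, stood at 2.36, 25.7 and 20.6 CPM in the ETV5 tumours, 9.11, 13.3 and 10.7 CPM in the NPY tumours, 30.3, 24.8 and 49.5 CPM in the control tumours and 290.1, 335 and 339 CPM in cortex. Its NPY libraries lay below all control libraries (log2 fold change -1.52, SE 0.29, adjusted p = 0.037), and ETV5 replicate 1 lay below the NPY libraries. Syngr3, a synaptogyrin, stood at 1.84, 9.86 and 6.91 CPM in the ETV5 tumours, 1.46, 2.07 and 2.19 CPM in the NPY tumours, 9.53, 9.36 and 21.9 CPM in the control tumours and 174, 161 and 195 CPM in cortex. The NPY libraries were all below 3 CPM and the control libraries all above 9 CPM (log2 fold change -2.58, SE 0.41, adjusted p = 0.0239), while the related Syngr1 was not called (log2 fold change -1.03, SE 0.27, adjusted p = 0.0794). The adjusted p-values of the 8 called vesicle protein genes lay between 0.078 and 0.108 without control replicate 2, and without NPY replicate 1 none of the 8 was called.

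The active zone scaffold, which organises release sites, was lower in the control tumours than in cortex for all 6 members. It was lower in the NPY tumours than in the control tumours for 4 of 6 (Rims1 among them). Rims1, the Rab3-binding organiser of the active zone, stood at 1.57, 5.38 and 3.19 CPM in the ETV5 tumours, 1.09, 0.852 and 1.53 CPM in the NPY tumours, 6.04, 9.8 and 8.14 CPM in the control tumours and 217, 225 and 147 CPM in cortex. It fell the most of this group, 27.2-fold in control tumours against cortex (log2 fold change -4.77, SE 0.23, adjusted p = 1.23e-06), and a further 6.05-fold in NPY against control tumours (log2 fold change -2.60, SE 0.37, adjusted p = 0.0182), with the ETV5 libraries also below all control libraries (log2 fold change -1.35, SE 0.50, adjusted p = 0.732). In NPY against control tumours Rims1 met the minimum of reads only with the control libraries, so that call is no separate support. Bsn, bassoon, a giant protein of the active zone matrix, stood at 5.77, 39.3 and 11.3 CPM in the ETV5 tumours, 8.38, 5.36 and 8.68 CPM in the NPY tumours, 17.2, 29.7 and 33.8 CPM in the control tumours and 348, 321 and 305 CPM in cortex. Its NPY libraries lay below all control libraries (log2 fold change -1.72, SE 0.33, adjusted p = 0.0363).

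Pclo, piccolo, the other giant matrix protein, stood at 3.41, 15.2 and 9.92 CPM in the ETV5 tumours, 2.91, 5.11 and 2.29 CPM in the NPY tumours, 10.8, 12.9 and 26.3 CPM in the control tumours and 243, 214 and 199.6 CPM in cortex. It was the call nearest to the threshold in the NPY tumours (log2 fold change -2.12, SE 0.45, adjusted p = 0.0481) and was called by neither edgeR nor limma-voom. Erc2, the ELKS family member CAST, stood at 2.36, 34.1 and 7.53 CPM in the ETV5 tumours, 2.91, 3.65 and 3.34 CPM in the NPY tumours, 9.53, 14.6 and 16.6 CPM in the control tumours and 199, 202 and 194 CPM in cortex. The NPY libraries were alike and below the control libraries (log2 fold change -1.89, SE 0.30, adjusted p = 0.0237), while ETV5 replicate 2 stood above every control library. Rims2 and Rims3, a larger and a shorter relative of Rims1, were not called in the NPY tumours (adjusted p = 0.305 and 0.51), and ETV5 replicate 2 held the highest tumour value of Rims3 at 12.3 CPM. Without control replicate 2 the adjusted p-values of the 4 called genes lay between 0.0917 and 0.127, and Bsn was called in none of the 6 fits that left out 1 library.

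The endocytic members take the vesicle membrane back after release. All 3 were lower in the control tumours than in cortex, and 1 was lower in the NPY tumours than in the control tumours. Amph, amphiphysin, which senses membrane curvature and recruits dynamin, stood at 4.07, 27.5 and 14.6 CPM in the ETV5 tumours, 4.98, 3.77 and 4.96 CPM in the NPY tumours, 16.1, 17.5 and 36.4 CPM in the control tumours and 233, 208 and 212 CPM in cortex. The NPY libraries lay below the control libraries (log2 fold change -2.15, SE 0.35, adjusted p = 0.0256), with an adjusted p of 0.0898 without control replicate 2. Dnm1, the neuronal dynamin that cuts vesicles free, kept 2.5% of the cortical level in the NPY tumours and 8.53% in the control tumours and was not called (log2 fold change -1.55, SE 0.36, adjusted p = 0.0613). Synj1, a phosphoinositide phosphatase with forms outside neurons, stood at 29.8, 60.4 and 48.3 CPM in the ETV5 tumours, 38, 59.7 and 34.5 CPM in the NPY tumours, 63.5, 56.5 and 78.4 CPM in the control tumours and 357, 285 and 283 CPM in cortex. The tumour groups overlapped and no call was made (log2 fold change -0.53, SE 0.25, adjusted p = 0.25), and control tumours were 5.27-fold below cortex (log2 fold change -2.40, SE 0.14, adjusted p = 1.98e-06).

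**Figure D4:**
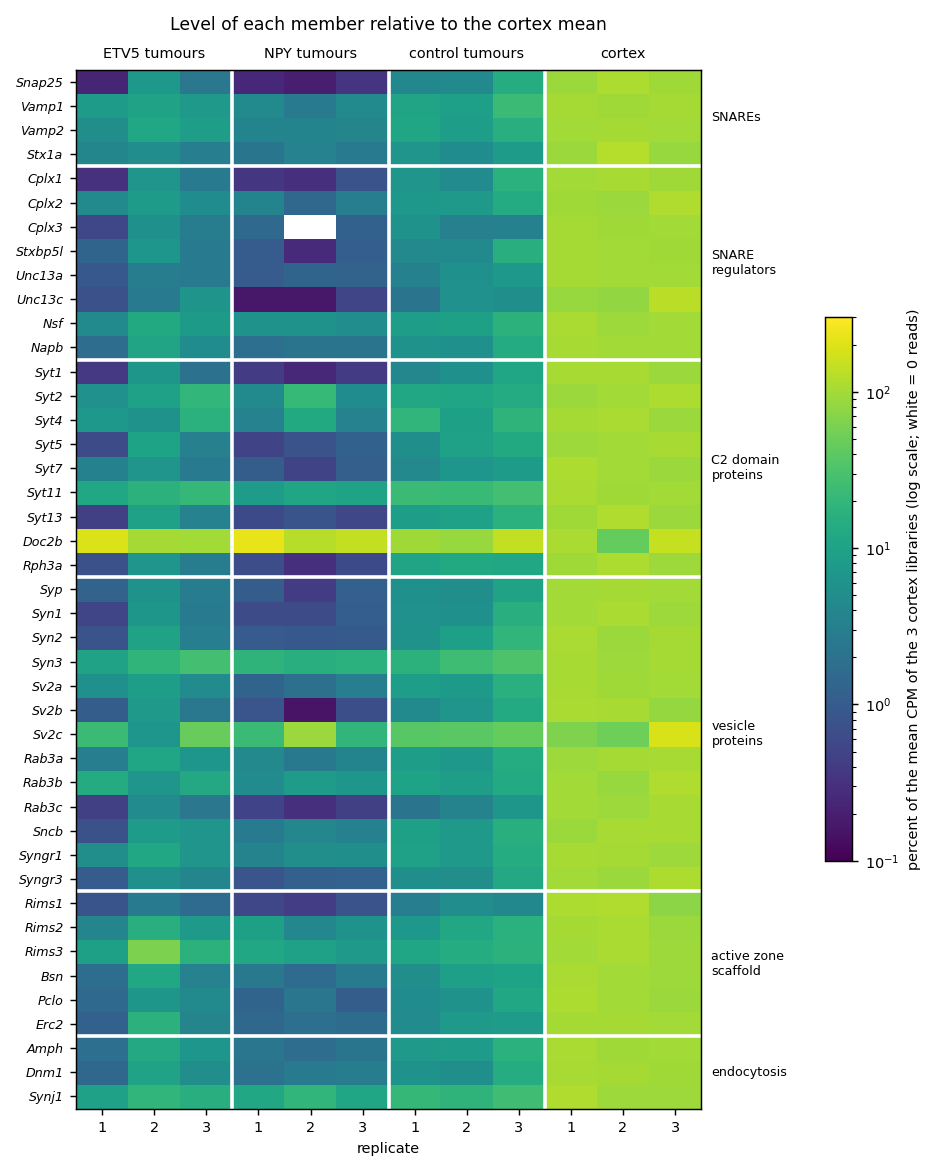
Level of each member (rows, grouped by role) in each library (columns, replicates 1 to 3 per group) as percent of the cortex mean, on a log colour scale. ETV5 replicate 1 and the NPY libraries are darkest, ETV5 replicate 2 is about as bright as the control tumours, and Doc2b is the brightest row; the white cell is Cplx3 with 0 reads in NPY replicate 2.

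The order of the members by level changed between cortex and tumours. Per kilobase of exon, the most abundant members of cortex were Cplx1 at 359.7 ± 18.9, Snap25 at 325 ± 34.9 and Syp at 287 ± 4.83 CPM per kb. The difference between Cplx1 and Snap25 was no larger than the SD of Snap25. In the NPY tumours Syt11 at 18.1 ± 2.57 and Doc2b at 17.9 ± 6.11 CPM per kb led, within each other's spread, followed by Vamp2 at 10.3 ± 0.22 CPM per kb. Syt11 also had the highest mean per length in the ETV5 tumours (30.6 ± 7.59 CPM per kb) and in the control tumours (44.6 ± 5.05 CPM per kb). Next were Vamp2 in the ETV5 tumours (23.7 ± 9.08 CPM per kb) and Cplx1 in the control tumours (33 ± 22.6 CPM per kb), both within the spread. In cortex Syt11 ranked 8 (183 ± 12.7 CPM per kb). Doc2b ranked 5 in the ETV5 tumours, 2 in the NPY tumours, 12 in the control tumours and 36 in cortex. Snap25 ranked 7 in the ETV5 tumours, 22 in the NPY tumours, 6 in the control tumours and 2 in cortex.

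In the NPY tumours 16 of the 43 members stood under 1% of the cortex mean and 38 under 10%, with Snap25 lowest at 0.263% and Doc2b highest at 167%. In the ETV5 tumours 0 members stood under 1% and 35 under 10%, and in the control tumours 0 stood under 1% and 22 under 10%. Of the 16 pan-neuronal markers 4 stood under 1% in the NPY tumours, the range being 0.61% (Camk2a) to 11.03% (Uchl1).

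**Figure D5:**
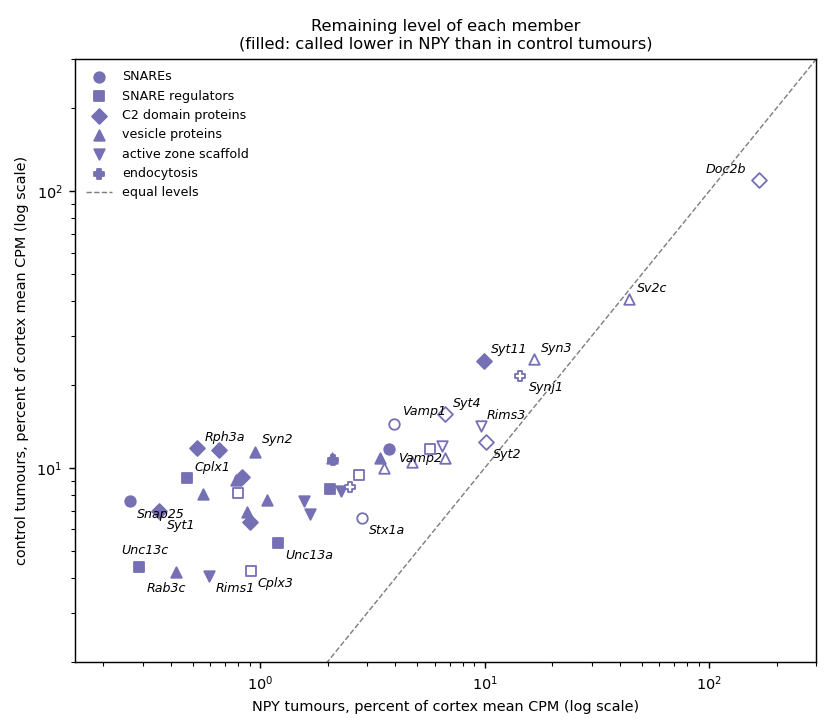
Mean level of each member in the NPY tumours (horizontal) and in the control tumours (vertical), each as percent of the cortex mean on log scales, with marker shapes for roles and filled markers for members called lower in the NPY tumours. All members but Sv2c and Doc2b lie above the dashed line of equal levels; Snap25 is farthest left at 0.263%.

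The members were next compared with the pan-neuronal markers, to ask which fell by more or less than neuronal genes at large. The level of each member relative to cortex was divided by the median of the 16 markers in the same library. In all 9 tumour libraries this ratio was above 1 for 6 members (Vamp1, Syt11, Doc2b, Syn3, Rims3 and Synj1), below 1 for 11 members (Snap25, Cplx3, Stxbp5l, Unc13a, Syt1, Syp, Syn1, Sv2b, Rab3c, Syngr3 and Rims1), and mixed for 26. For Snap25 it was 0.107 to 0.778 in the ETV5 tumours, 0.0919 to 0.167 in the NPY tumours and 0.398 to 0.863 in the control tumours, so that its NPY libraries lay below its control libraries also on this scale. For Vamp2 it was 1.3 to 2.51 in the ETV5 tumours, 1.73 to 1.9 in the NPY tumours and 0.916 to 1.05 in the control tumours, so that its NPY libraries lay above its control libraries on this scale. Rph3a stood at 0.342 to 0.703 in the ETV5 tumours, 0.137 to 0.332 in the NPY tumours and 0.717 to 1.5 in the control tumours. Synj1 stood at 2.14 to 4.58 in the ETV5 tumours, 5.55 to 8.96 in the NPY tumours and 1.56 to 2.13 in the control tumours. These ratios are descriptions and were not tested.

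In a limma fit of control tumours against cortex with the marker median taken off each library, 15 of the 43 members were called. Of these 5 were higher than the markers, against 90.0% of all genes, namely Doc2b (log2 difference 3.44), Sv2c (2.14), Syt11 (1.15), Syn3 (1.14) and Synj1 (0.96). The other 10 were lower than the markers, against 1.03% of all genes. They were Rab3c (-1.51), Rims1 (-1.41), Unc13c (-1.34), Cplx3 (-1.25), Unc13a (-1.09), Syt7 (-0.81), Syt1 (-0.79), Snap25 (-0.77), Stx1a (-0.75) and Syp (-0.73). The markers themselves had a median log2 fold change of -3.27, and taking off their median raises every gene. The shares of all genes, here and in the ordinary model below, follow from this and are no yardstick for the members. In the same limma fit 2 of the 16 markers were called higher and 0 lower, around their own median. The error of the marker median enters every gene alike, which neither this limma fit nor an ordinary linear model per gene corrects for. The ordinary model, chosen after seeing the data, called 18 members, 5 higher, against 89.3% of all genes, and 13 lower, against 1.34% of all genes. Its p was smaller than that of limma for 27 members and larger for 16, and 13 members were called by both. Cplx3 and Unc13c were not among them (adjusted p = 0.0749 and 0.0546 in the ordinary model). The limma count was 9 without cortex replicate 1, 8 without cortex replicate 2 or 3, and 27 without control replicate 3.

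Other genes of the pathway that are not members were set beside them. Of 32 other presynaptic genes tested, 31 were lower in the control tumours than in cortex, against 36.2% of all genes. Among the largest falls were those of Synpr, synaptoporin (log2 fold change -4.40, adjusted p = 1.87e-06), and Ppfia2, a liprin scaffold (log2 fold change -4.30, adjusted p = 2.35e-06), and Syt9 was not called. In the NPY tumours 16 of 31 were lower than in the control tumours, against 4.31% of all genes. The most negative was Slc17a7, the vesicular glutamate transporter of cortical neurons (log2 fold change -4.22, adjusted p = 0.0124). Atp6v1b2, a subunit of the proton pump, had a value close to zero there (log2 fold change -0.04, adjusted p = 0.923). Without control replicate 2 limma called 1 gene in all in this comparison, so these calls were not stable to leaving out that library, which also leaves fewer control libraries. The median log2 fold change of the members was -1.91 without it and -1.85 with it.

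The widely expressed paralogues, relatives that serve secretion in most cells, moved in either direction. Of 23 tested, 12 were higher and 9 lower in the control tumours than in cortex, beside 35.7% of all genes called higher and 36.2% called lower, so that the share called lower was near that of all genes. The largest rises were those of Vamp8, an endosomal and secretory granule SNARE (log2 fold change 3.46, adjusted p = 1.35e-06), Syngr2, the synaptogyrin of non-neuronal cells (log2 fold change 3.16, adjusted p = 1.02e-06), and Unc13d, the Munc13 of blood cell granules (log2 fold change 2.96, adjusted p = 0.00127). The largest falls were those of Snap47 (log2 fold change -2.52, adjusted p = 1.78e-06), Napg, the gamma form of the NSF adaptor (log2 fold change -2.22, adjusted p = 2.92e-06), and Stxbp5, tomosyn 1 (log2 fold change -1.80, adjusted p = 6.01e-06). Microglia and macrophage markers were also higher in the control tumours than in cortex for 6 of 7 genes, and their part in the rises was not tested. Between NPY and control tumours limma called 0 of the 23, with 7 at an unadjusted p under 0.05, and with edgeR and limma-voom the number was likewise 0, while by DESeq2 1 was higher and 3 were lower. Vamp7 was listed at 0 in all 12 libraries.

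The ETV5 tumours were finally set against the NPY tumours, on values scaled together over the 9 tumour libraries. limma called 0 of 41 members tested, and 0% of the 14023 genes tested, with 831 genes and 10 members at an unadjusted p under 0.05. edgeR and limma-voom also called 0 members, and DESeq2 called 2, Snap25 and Syt7. The value was positive for 37 of the 41 members, with a median log2 fold change of 1.09 against -0.02 for all genes. The ETV5 libraries all lay above the NPY libraries for 11 members (Vamp1, Vamp2, Cplx2, Stxbp5l, Syt7, Syt11, Rph3a, Syp, Sv2a, Sv2b and Rims1) of 41, against 7.47% of all genes. Of these Syt7 had 11.6 ± 5.54 CPM in the ETV5 tumours and 2.51 ± 0.914 CPM in the NPY tumours. Stxbp5l, Sv2b and Rims1 had fewer than 10 reads in 1 or more NPY libraries and met the filter only with the ETV5 libraries. Their place among the 11 is therefore no separate support. In all, 8 of the 41 members had fewer than 10 reads in 1 or more of the libraries compared. They were Stxbp5l, Syt2, Syt5, Syt13, Sv2b, Sv2c, Rab3c and Rims1. These 8 also enter the median and the count of positive values, where they are no separate support either. The code prefix of ETV5 replicate 3 was EC, like that of the NPY libraries, and the prefix of the other 2 ETV5 libraries was DS. This comparison and the ones above share libraries, since the ETV5 and NPY tumours were each set against the same 3 control tumours.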

How the data were processed

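RNA was sequenced as paired ends from 300 ng of total RNA with the TruSeq Stranded mRNA kit, per the labels' protocols. The submitters' processing notes name the aligner STAR 2.5.0a, the build mm10, FastQC 0.11.7, DESeq2 1.30.1 and MultiQC 1.6. No source used here gives the counter, its annotation or its strand setting. The authors deposited 2 tables of normalized signal per gene, one with cortex, ETV5 and control libraries and one with NPY and control libraries. In every column the deposited values were whole multiples of 1 step, within 0.01 read, so reads were recovered by division. The reads of the control libraries were identical in both tables and their scaling differed, so tests stayed within a table; for ETV5 against NPY tumours the reads of the 9 tumour libraries were rescaled together.

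The plan had named edgeR for counts. Because the values were normalized, the main test was limma 3.58.1 (trend, robust, R 4.3.3) on log2(deposited value + 1), fitted on the 2 groups compared, with edgeR 4.0.16, DESeq2 1.42.0 and limma-voom on recovered reads as alternatives. Genes needed, in 3 libraries, a CPM that equals 10 reads at the median depth of the libraries compared, and 15 reads in total. The mark of fewer than 10 reads in a library, used above for some members, is separate from this filter. The fits were tested on simulated data. Members and gene lists were chosen with earlier results of these data known. Full values are given for members called in ETV5 or NPY against control tumours and for the 5 with the largest and the 5 with the smallest fall in control tumours against cortex. Of other lists the rule named the 3 largest called rises and falls against cortex; any other gene outside the members, such as Slc17a7, Atp6v1b2 and Vamp7, was chosen after its values were seen. Some genes that the rule names are not reported here. Exon lengths and overlaps came from GENCODE M21 (mm10), promoter windows from RefSeq. Intervals cover counting error only. Replicate numbers were not used as pairs.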

Additional observations from a re-analysis of the deposited data

How the results depend on the processing

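With 3 libraries a group and 5962376 to 11291057 reads each, members of few reads, such as Cplx3 and Unc13c, set the limit of what could be compared. The 42 members called in control tumours against cortex were also called with another pseudocount, with TMM-scaled CPM, under either other filter and with the replicate block; Sv2c alone was lost, in the cases given above. The labels do not say whether the replicate numbers pair the libraries. Same-numbered libraries did not deviate together in every comparison, which with 3 libraries a group cannot settle whether they were paired. With the replicate block, 13 members and 264 genes were called between NPY and control tumours, and 13 members relative to the neuronal markers; it moved no other count of calls by over 1.5 times. DESeq2 called 1833 genes between NPY and control tumours, 76 between ETV5 and control tumours and 56 between ETV5 and NPY tumours, where it called 2 members; without the filter on reads 1 gene was called there. Leaving out 1 library at a time gave 0 to 22 members and 1 to 571 genes in NPY against control tumours, 8 to 27 members relative to the neuronal markers, and 0 to 1 gene in ETV5 against NPY tumours. The cause was not tested.

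Some members without a call changed sign. In control tumours against cortex Doc2b was -0.028 with edgeR, -0.015 with DESeq2 and -0.39 to 0.44 with 1 library left out. In ETV5 against control tumours Rab3b was 0.0533 with edgeR, 0.0418 with DESeq2, 0.0405 with limma-voom and -0.23 to 0.29 with 1 library left out, and Erc2 was 0.0948 with edgeR, 0.0899 with DESeq2 and -1.61 to 0.28 with 1 library left out. Over the same left-out libraries Unc13c gave -1.42 to 0.0424, Syt2 -0.69 to 0.17, Doc2b -0.0609 to 0.42 and Rims3 -0.13 to 1.20. In NPY against control tumours Sv2c was 0.15 with edgeR, 0.19 with DESeq2 and -0.82 to 0.27 with 1 library left out. A fit of all groups could not be had where the groups stand in different tables, and a term for the code prefix only in the comparisons of ETV5 tumours.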

Other observations

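The other regulated secretory pathway of neurons, the dense-core granule that releases neuropeptides, was also low in the tumours. All 8 granule genes tested were lower in the control tumours than in cortex, against 36.2% of all genes, with the largest log2 fold changes for the prohormone convertase Pcsk2 (-3.93), its chaperone Scg5 (-3.55) and the convertase Pcsk1 (-3.08; limma adjusted p = 1.2e-05, 3.18e-06 and 0.00291 in that order). In the NPY tumours 5 of 8 were lower than in the control tumours, against 4.31% of all genes, among them the granins Chga (-4.21) and Chgb (-4.05; limma adjusted p = 0.0129 and 0.0122), while Pcsk1 stood at -0.05 (limma adjusted p = 0.981). Cpe, the carboxypeptidase of the granule, made up most of their summed CPM in every tumour library, at 362 to 818 CPM in the NPY tumours, 1072 to 1474 CPM in the control tumours and 2895 to 3113 CPM in cortex. The other 7 genes summed to 30.3 to 79.2 CPM in the NPY tumours, 278 to 458 CPM in the control tumours and 1996 to 2209 CPM in cortex, with no overlap among these groups. In the ETV5 tumours these 7 genes summed to 40.4 to 282 CPM, which overlaps both the NPY and the control range. Cpe stood at 847 to 1335.5 CPM there. Without control replicate 2, limma called 1 gene in all between NPY and control tumours.

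Of the cell type markers, all 8 excitatory and all 8 inhibitory neuron markers were lower in the control tumours than in cortex, led by Neurod6 (-4.96), Nrgn (-3.98) and Tbr1 (-3.95) and by Vip (-4.96), Gad2 (-4.43) and Dlx1 (-4.30). All 16 pan-neuronal markers were lower too, led by Nefl (-3.99), Camk2a (-3.88) and Elavl4 (-3.74). Among oligodendrocyte lineage markers 7 of 10 were lower, among them Mog (-3.44) and Mbp (-2.51), and 2 were higher, Sox10 (1.66) and Cspg4 (0.60). Among astrocyte markers 5 of 7 were lower, led by Slc1a2 (-2.93), Aldoc (-2.33) and Gja1 (-1.14), and Gfap was higher (2.64). Of the microglia and macrophage markers C1qb (3.85), C1qa (3.82) and Aif1 (2.86) led the 6 of 7 that were higher, and P2ry12 was lower (-0.90). All 6 tumour markers were higher, led by Vim (5.47), Top2a (5.04) and Mki67 (4.79). These are log2 fold changes from limma, each with an adjusted p under 0.05. Beside these counts, 36.2% of all genes tested were called lower in the control tumours than in cortex and 35.7% higher.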
